A study of Mus musculus with 12 samples.

Results

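The 70 genes described here encode the linker histones and the core histones of the mouse replication-dependent families. They were taken by symbol from 55415 entries of a gene table: the linker histones (H1f followed by a number, 11 genes) and the clustered genes of H2A (H2ac, 18), H2B (H2bc, 17), H3 (H3c, 12) and H4 (H4c, 12). H2ax was left out. The rule uses symbols alone and so takes in members that no library detected, but the families were picked with earlier results of these data known. The samples were bulk tumour tissue grown from CT26, a mouse colon carcinoma cell line first made in the BALB/c strain, so that fewer cells of a type and less RNA per cell cannot be told apart. Mice were left untreated (control), received Complex 1, which the series title names as a platinum complex activated by X-rays, received radiation, or received Complex 1 together with radiation (combination), with 3 libraries in each group. All groups carry CT26 tumours labelled wild type, and no allele separates them. The labels give no dose, no time of sampling and no statement that a sampled tumour lay in the irradiated field. Nothing in them says that libraries sharing a group came from separate mice, so p-values measure only the spread between these samples.

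Nucleosomes hold DNA wrapped around an octamer of core histones, and linker histones bind where the DNA enters and leaves it. Most core histone genes, and several H1 genes, are transcribed in S phase from clusters, and their mRNAs end in a conserved stem-loop that the stem-loop binding protein (Slbp) recognises, in place of a poly(A) tail. A few members, such as H1f0 and H1f10, are made outside S phase from polyadenylated mRNAs, and H1f0 is known to accumulate in slowly dividing and differentiated cells. In tissues that divide, the first kind is used as a sign of DNA replication, provided that the library preparation captures RNA without a poly(A) tail.

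The 3′ end separates these kinds of mRNA, and the ends of the genes that the results turn on are shown first. They were read on the sense strand from GENCODE M21 transcripts (GRCm38), in which all 70 genes were found by identifier and 65 had the exonic length of the deposited table. In the first set the capitals mark both 6-base arms of the stem, and the 4 bases between them form the loop.
H1f2: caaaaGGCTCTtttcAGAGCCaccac
H2bc8: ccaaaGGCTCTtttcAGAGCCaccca
H4c9: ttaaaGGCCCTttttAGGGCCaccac
H3c8: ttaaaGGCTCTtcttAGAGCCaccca
In the second set the capitals mark a poly(A) signal within the last 50 bases of the transcript.
H1f0: ttaaaactttaaAATAAAactggaaaggaa
H1f10: ttcctggggcgcAATAAAcggttccaacct
H2bc21: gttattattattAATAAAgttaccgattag
H1f2: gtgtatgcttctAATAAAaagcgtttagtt
H1f2 is in both sets: its annotated transcript runs 840 bases past the stem-loop and carries a poly(A) signal that ends 20 bases before its 3′ end. H1f0, H1f10 and H2bc21 have the signal and no stem-loop. The motif searched was an arm GGNNCT, a loop TNTN and an arm AGNNCC in direct succession, with arms that pair with each other, on the sense strand of the transcript only. It was in 43 of the 70 histone genes (61.4%) and in 12 of 21832 other protein-coding genes (0.055%). The most frequent form, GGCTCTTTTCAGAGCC, was in 24 histone genes.

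The members held a small part of each library and were unequal among themselves. Libraries held 15.6 to 19.1 mega counts, of which the 70 genes took 0.0320% to 0.0510%, or 5093 to 9751 counts. H1f0 alone gave 82.6% to 89.4% of the counts of all members in a library. No count was found in any library for 9 members, 29 members did not exceed 3 counts in any library, and 10 exceeded 3 counts in all 12. Levels are given as FPKM, which scale counts to a kilobase of exon and to 1 mega count in the library. The mean over the 12 libraries was under 1 FPKM for 62 members, with a median of 0.108 FPKM over the 70. Only the 9 members with at least 1 FPKM in at least 3 libraries (the level filter) were tested in the main fit. A count among these 9 is never a count of the families. They were 3 of 11 H1 genes, 1 of 18 H2A genes, 3 of 17 H2B genes, 1 of 12 H3 genes and 1 of 12 H4 genes.

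By place in the genome (mm39), 55 members lie in the large cluster on chromosome 13, of which 6 were tested, and 10 in the cluster on chromosome 3, of which 1 was tested. The 5 others lie outside both clusters and include H1f0 and H1f10. The 7 genes with a poly(A) signal and no stem-loop had a median of 0.0908 FPKM, but they held H1f0 at 165 FPKM and gave 75261 of the 83820 counts of all members over the 12 libraries. The 22 genes with a stem-loop and a longer or alternative end had a median of 0.218 FPKM and a highest mean of 13.97 FPKM, in H1f2. The 21 genes whose transcript stops within 100 bases of the stem-loop had a median of 0.0825 FPKM, a highest mean of 0.703 FPKM in H3c8, and 315 counts in all. Of these 21 genes, 8 exceeded 3 counts in any library, against 19 of the 22 with a longer or alternative end. These classes also differ in exonic length, 391 to 630 bases against 470 to 7425, and longer genes can collect more counts. Of their 31-base sequences, 47.7% to 100% against 0% to 100% also occur at another locus. The part of length and of shared sequence in these counts was not tested. A further 15 gene models end at or near the stop codon and 5 show neither feature, so their ends could not be sorted. The labels do not state whether poly(A) RNA was selected, so low levels here do not show that these genes were little transcribed.

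**Figure D1:**
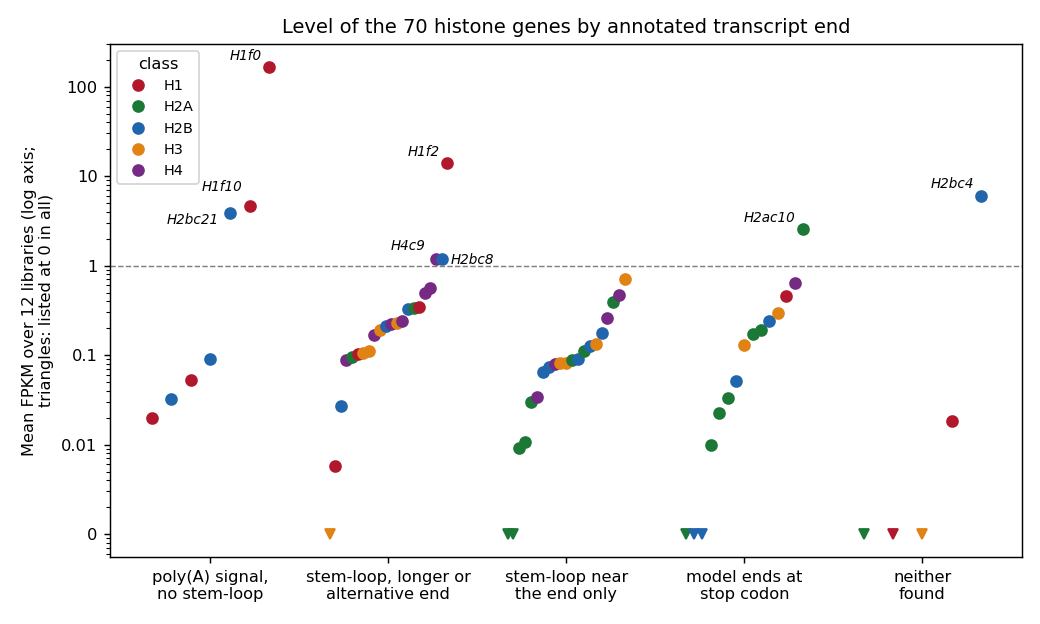
Mean FPKM over the 12 libraries (log axis) of the 70 histone genes, by the end of their annotated transcript and coloured by class; triangles are genes listed at 0 in all libraries and the dashed line is 1 FPKM. The 21 genes that stop near the stem-loop all lie under 1 FPKM, while H1f0 stands at 165 FPKM among those with a poly(A) signal.

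Many members resemble each other closely, which limits how their reads can be assigned. At least 50% of the 31-base words of the transcript also occur at another locus for 42 of the 70 genes. The share was 0% for H1f0 and H1f10, 2.82% for H2bc21, 11.4% for H1f2, 32.6% for H2bc4, 35.3% for H4c9, 56.3% for H2bc8, 60.2% for H3c8 and 85.9% for H2ac10. Counts of the last 3 are therefore uncertain. The strand setting of the counting is not given. H1f10 shares 755 bases with Gm5577 on the opposite strand (32 to 54 counts per library), and H1f0 shares 163 bases with Gm49544 (2 to 11 counts), and reads of such pairs cannot be told apart. A level also rests on the annotated length: H1f2 has 1560 exonic bases in the deposited table, whereas the RefSeq gene (GRCm38.p6) spans 725.

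Control replicate 2 stood apart from the other 11 libraries. Its level of Xist, a long RNA made from the silenced X chromosome, was 0.02 FPKM, while the others had 9.20 to 14.2 FPKM. That library also had the highest H1f2, H2bc4, H2bc8 and H1f0 of all, and the main results on these genes are also given without it. Of the 7 epithelial markers, Krt18 was at 2.81 to 7.72 FPKM and Cdh1 at 0.10 to 1.05 FPKM, Krt8 did not exceed 0.67 FPKM, Krt19 did not exceed 0.24 FPKM, and Epcam, Cdx2 and Vil1 did not exceed 0.18 FPKM. The 6 germ cell markers, which would mark testis-type histone expression, summed to 0.30 to 1.99 FPKM, and Tnp1 was at 0 in every library.

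H1f2 (ENSMUSG00000036181, chromosome 13, 23922791 to 23924350, plus strand), a somatic linker histone of the cluster, was the tested member that fell with Complex 1. Its levels were 16.30, 25.96 and 15.71 FPKM in control replicates 1 to 3 and 7.78, 10.40 and 9.05 FPKM in the Complex 1 libraries. The radiation libraries had 12.48, 14.78 and 12.66 FPKM, and the combination libraries 13.76, 12.72 and 15.98 FPKM. All 3 Complex 1 libraries lay below all 9 others, and radiation libraries lay below all controls, while 1 combination library lay within the control range. H1f2 fell with Complex 1 from 19.3 ± 5.76 to 9.08 ± 1.31 FPKM (SD, n = 3), a log2 fold change of -1.12 ± 0.18 (SE; adjusted p = 0.014, edgeR quasi-likelihood, BH) or 2.18-fold lower. This was the only one of the 9 tested members to pass against control with Complex 1, where 0.0951% of all tested genes passed in the lower direction. Without control replicate 2 the difference was -0.85 ± 0.13 with an adjusted p of 0.051, and it passed when any other single library was left out. In a fit of the control and Complex 1 libraries alone it was -1.13 with an adjusted p of 0.073.

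With radiation, H1f2 fell to 13.3 ± 1.28 FPKM (log2 fold change -0.57 ± 0.18, adjusted p = 0.0499, edgeR). That call is at the edge of the threshold: leaving out any single library other than control replicate 3 ended it, and without control replicate 2 the value was -0.29 ± 0.13 (adjusted p = 0.20). The combination had 14.2 ± 1.67 FPKM, -0.50 ± 0.18 against control (adjusted p = 0.060 with edgeR and 0.033 with DESeq2). Without control replicate 2 that value was -0.22 (adjusted p = 0.29, edgeR). Against Complex 1 alone, H1f2 rose in the combination by 0.63 ± 0.18 on the log2 scale (adjusted p = 0.047, edgeR), and all 3 combination libraries lay above all 3 Complex 1 libraries. Leaving out 1 library kept this value between 0.53 and 0.72, and the call was kept only without control replicate 1, 2 or 3 or radiation replicate 2 (adjusted p 0.011 to 0.17 over the 12 fits). Against radiation alone the combination differed by 0.07 ± 0.18 (adjusted p = 0.93).

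The response of H1f2 to radiation thus had a different sign with and without Complex 1, -0.57 alone and 0.63 on top of it. The interaction, which is the difference between these values, was 1.19 ± 0.25 with an unadjusted p of 0.00041. It did not pass after adjustment in edgeR (adjusted p = 0.997), where 0% of all 13668 genes passed, and passed in DESeq2 (1.20, adjusted p = 0.016). Leaving out 1 library gave 0.92 to 1.33 with the sign kept in all 12 fits and no adjusted p under 0.05 in edgeR. Averaged over both levels of radiation, the effect of Complex 1 was -0.53 ± 0.13 (adjusted p = 0.045, edgeR), which passed in 2 of 12 fits with 1 library left out, those without control replicate 1 or 3 (range -0.59 to -0.39). The mean of the radiation differences with and without Complex 1 was 0.03 for H1f2, with an SE of 0.13 (adjusted p = 0.89).

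**Figure D2:**
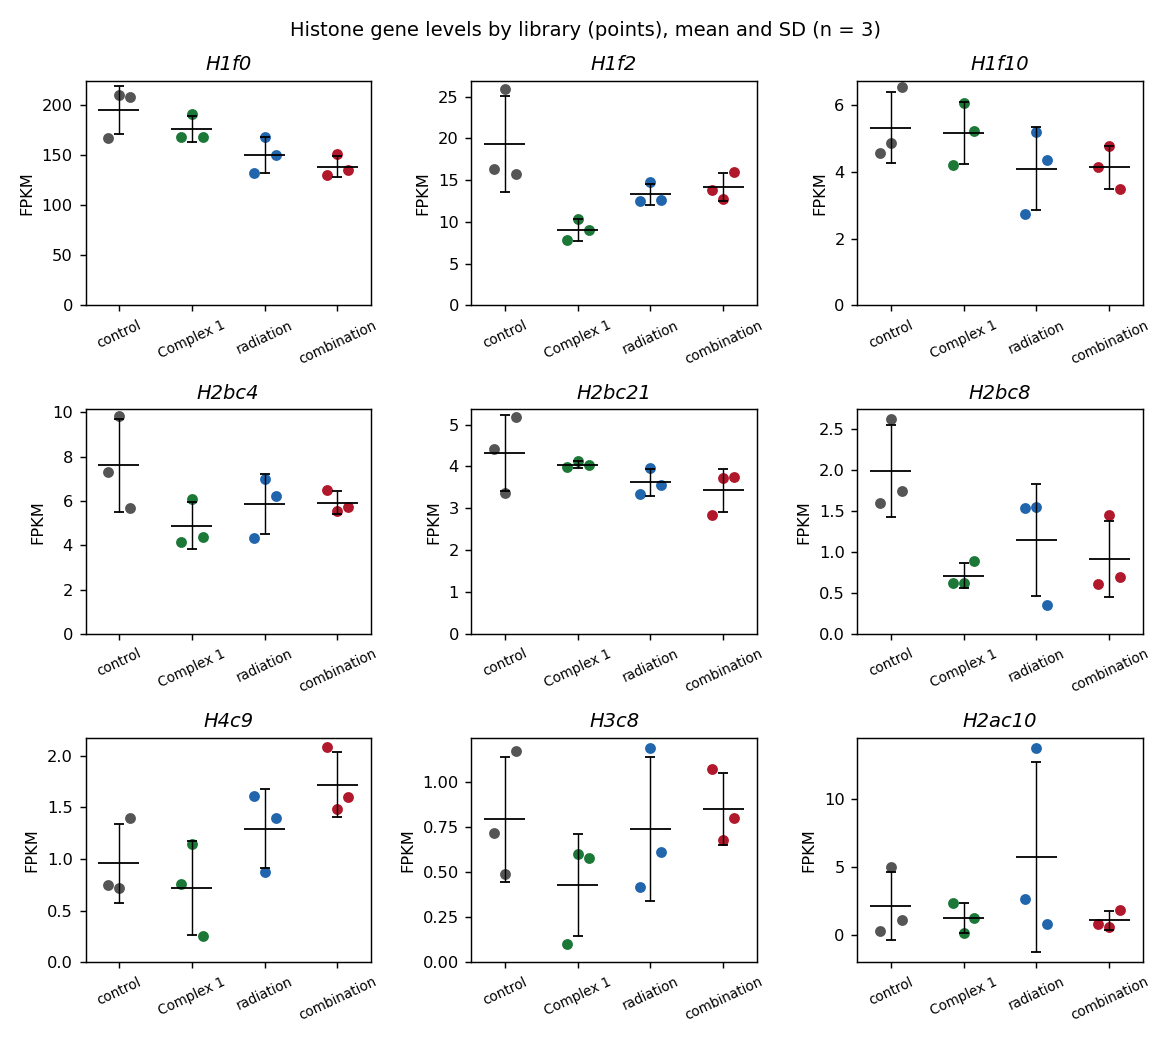
FPKM of the 9 tested histone genes in each library (points) by group, with the mean (line) and the SD (bars, n = 3). H1f2 is lowest in the 3 Complex 1 libraries (7.78 to 10.40 FPKM), and H1f0 has its lowest mean in the combination (138 FPKM).

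The promoter of H1f2 is shown because this gene gave the largest fold change among the members that passed. It covers the 250 bases before the start site in RefSeq (GRCm38.p6), chr13:23738557-23738806, plus strand, and the capitals mark, in order, an AAACACA element known from H1 promoters, a CCAAT box and a run of overlapping TATA motifs.
H1f2: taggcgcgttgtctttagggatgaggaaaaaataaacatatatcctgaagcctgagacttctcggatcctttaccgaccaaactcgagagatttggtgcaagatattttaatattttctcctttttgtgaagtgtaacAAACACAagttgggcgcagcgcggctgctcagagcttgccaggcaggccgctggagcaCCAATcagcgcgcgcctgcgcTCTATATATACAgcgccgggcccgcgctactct
The first bases of AAACACA and CCAAT lie at -112 and -54 from the start site, and TATANA was matched on both strands from -33. AAACACA was in 5 of 10 H1 promoters and 9 of 62 promoters of members with an entry (14.5%), against 6.22% of all 27025 RefSeq promoters of the same length, counting both strands. CCAAT was in 49 of 62 (34.5% of all promoters) and TATANA in 40 of 62 (23.4% of all). ATTTGCAT, the octamer bound by Pou2f1, was in 6 of 17 H2A and 6 of 14 H2B promoters and in no H1, H3 or H4 promoter (1.61% of all). None of the 4 motifs was in the windows of H1f0 and H1f10, which says only that these letters are not there.

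H1f0 (ENSMUSG00000096210, chromosome 15, 78912650 to 78914704, plus strand), the replacement linker histone, was the most abundant member and fell with radiation. Its levels were 166.49, 209.65 and 207.54 FPKM in the controls and 168.19, 190.57 and 167.51 FPKM with Complex 1. They were 131.92, 167.97 and 150.14 FPKM with radiation and 129.61, 150.50 and 134.79 FPKM in the combination. All 3 combination libraries lay below all control and all Complex 1 libraries, and radiation replicate 2 lay within the range of the Complex 1 libraries and above the lowest control. H1f0 fell by 0.40 ± 0.10 on the log2 scale with radiation (adjusted p = 0.024, edgeR; 194.56 ± 24.3 to 150.01 ± 18.0 FPKM, SD, n = 3). It fell by 0.54 ± 0.10 in the combination against control (adjusted p = 0.0030; 138.3 ± 10.9 FPKM). The values with Complex 1 alone were 175 ± 13.1 FPKM and a log2 fold change of -0.18 ± 0.10 (adjusted p = 0.53).

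Averaged over both levels of Complex 1, H1f0 fell by 0.38 ± 0.07 with radiation (adjusted p = 0.0024, edgeR), and this passed in all 12 fits with 1 library left out (-0.43 to -0.34). It was the only member of the 9 tested to pass in that comparison, where 13.2% of all tested genes passed in the lower direction, so 1 of 9 is near the background. The combination against control also passed in all 12 such fits. Radiation against control did not pass without control replicate 2 (-0.34 ± 0.12, adjusted p = 0.093), control replicate 3 (-0.36, 0.066), radiation replicate 1 (-0.32, 0.107) or radiation replicate 3 (-0.40, 0.061), nor in a fit of those groups alone (-0.40, 0.060). Against Complex 1 alone, H1f0 fell in the combination by 0.36 ± 0.10 (adjusted p = 0.045). This call was kept in 5 of the 12 fits, those without control replicate 1 or 2, Complex 1 replicate 3, or radiation replicate 1 or 2, with values from -0.42 to -0.31. The combination differed from radiation alone by -0.14 ± 0.10 (adjusted p = 0.69). The interaction was 0.04 ± 0.15, so the change of H1f0 with radiation was -0.40 without and -0.36 with Complex 1.

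**Figure D3:**
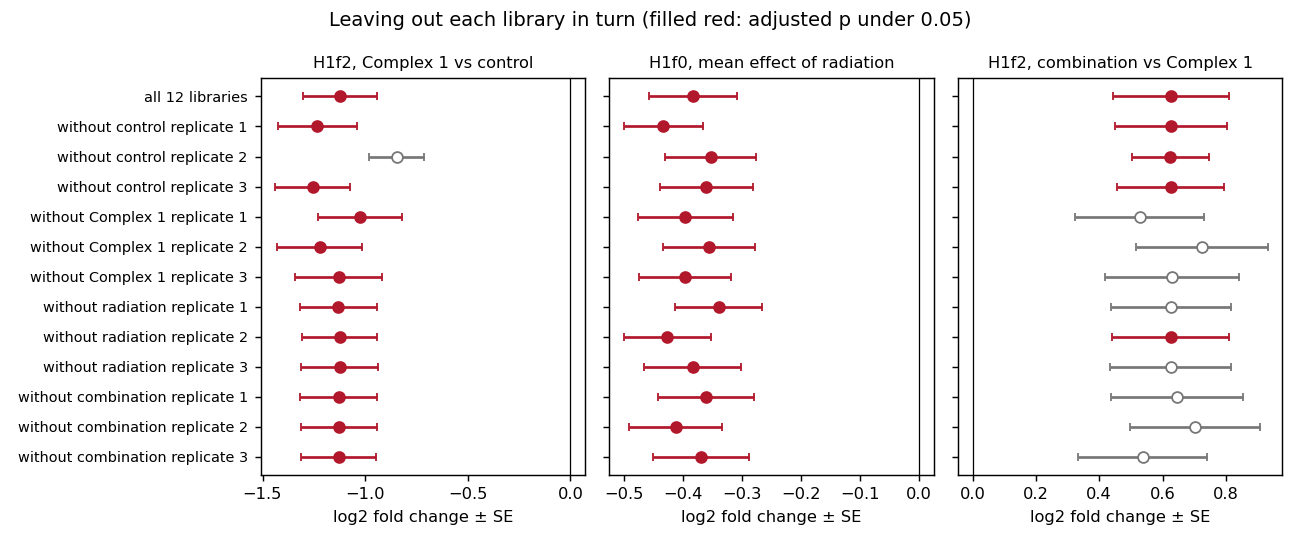
Log2 fold change ± SE (edgeR) of H1f2 for Complex 1 against control, H1f0 for the mean effect of radiation and H1f2 for combination against Complex 1, with all 12 libraries and with each left out in turn; filled red points have an adjusted p under 0.05. H1f0 passes in all 13 fits, H1f2 loses its call against control only without control replicate 2 (-0.85), and the combination call of H1f2 is lost in 8 of 12.

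H1f10 (ENSMUSG00000044927, chromosome 6, 87957403 to 87958619, minus strand), a linker histone outside the clusters, passed in no comparison. Its levels were 4.57, 4.86 and 6.54 FPKM in the controls, 4.21, 6.06 and 5.22 FPKM with Complex 1, 2.75, 5.20 and 4.36 FPKM with radiation and 4.15, 4.77 and 3.49 FPKM in the combination. The groups overlapped in every pair. The mean effect of radiation was -0.37 ± 0.17 (adjusted p = 0.12, edgeR), close in size to that of H1f0 but with a wider error. Among the H1 genes below the level filter, H1f5 had 14, 6 and 15 counts in the controls against 4, 2 and 3 with Complex 1. It had 5, 7 and 1 counts with radiation and 4, 4 and 9 in the combination. H1f4 had 8, 8 and 10 counts in the controls, 4, 11 and 10 with Complex 1, 17, 14 and 8 with radiation and 17, 15 and 16 in the combination. H1f5 was thus lower in the Complex 1 libraries than in any control, as were 4.71% of all tested genes in FPKM. H1f4 was at or above 15 counts in all combination libraries and in radiation replicate 1. In the edgeR fit without a level filter, H1f5 was -1.84 with Complex 1 against control (adjusted p = 0.18). There H1f4 was 0.90 in the combination against control (adjusted p = 0.29), so neither passed. H1f3, also untested, was 0.50 in the latter comparison (adjusted p = 0.63). The spans of H1f4 and H2bc6 overlap on the same strand, so reads in the shared part are uncertain.

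Of the core histones, the H2B genes were the best measured. H2bc4 (ENSMUSG00000018102, chromosome 13, 23868182 to 23876891, plus strand) had 7.32, 9.82 and 5.67 FPKM in the controls and 4.15, 6.10 and 4.39 FPKM with Complex 1. It had 4.34, 6.98 and 6.22 FPKM with radiation and 6.50, 5.53 and 5.73 FPKM in the combination. The Complex 1 libraries overlapped the lowest control, and the difference was -0.67 ± 0.23 (adjusted p = 0.23, edgeR). It was -0.44 (adjusted p = 0.63) without control replicate 2, and passed in the fit without a level filter (-0.69, adjusted p = 0.014). In other comparisons that fit also passed H2ac10, whose highest count came from 1 library. H2bc21 (ENSMUSG00000068854, chromosome 3, 96128435 to 96131054, plus strand), a polyadenylated H2B gene, had 4.42, 3.36 and 5.19 FPKM in the controls, 3.98, 4.13 and 4.03 FPKM with Complex 1, 3.34, 3.97 and 3.56 FPKM with radiation and 2.84, 3.72 and 3.74 FPKM in the combination. Its mean effect of radiation was -0.27 ± 0.11 (adjusted p = 0.097) and -0.34 (0.028) without control replicate 2.

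H2bc8 (chromosome 13, 23755570 to 23756187) was low, with 18, 31 and 19 counts in the controls and 7, 6 and 9 with Complex 1. It had 17, 18 and 4 counts with radiation and 6, 15 and 8 in the combination. The Complex 1 libraries and the combination libraries all lay below the controls in FPKM (1.59 to 2.62 in the controls, 0.62 to 0.89 and 0.61 to 1.45). The differences were -1.50 ± 0.50 (adjusted p = 0.21, edgeR) and -1.16 ± 0.47 (adjusted p = 0.099). Without control replicate 2 they were -1.24 and -0.90. The Complex 1 difference passed in the fit without a level filter (-1.51, adjusted p = 0.047, edgeR). The combination difference passed without radiation replicate 3 (-1.16, adjusted p = 0.042) and in no other fit with 1 library left out. H2bc8 reached 1 FPKM in 3 control, 0 Complex 1, 2 radiation and 1 combination libraries.

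The tested genes of the other 3 core families were at the limit of the measurement. H4c9 (chromosome 13, 22224806 to 22225532) had 0.75, 0.72 and 1.40 FPKM in the controls, 0.76, 1.15 and 0.25 with Complex 1, 1.61, 0.87 and 1.40 with radiation and 2.08, 1.48 and 1.60 in the combination. The combination libraries lay above all control and Complex 1 libraries. H4c9 was 1.23 ± 0.44 higher there than with Complex 1 (adjusted p = 0.094, edgeR), and its mean effect of radiation was 0.82 ± 0.31 (adjusted p = 0.066), the opposite sign to H1f0. The latter passed in 3 of 12 fits, those without control replicate 3 (1.00, 0.037), Complex 1 replicate 2 (1.05, 0.038) or radiation replicate 2 (0.93, 0.045). H3c8 (chromosome 13, 23719592 to 23720121) had 0.72, 0.49 and 1.17 FPKM in the controls and 0.10, 0.60 and 0.58 with Complex 1. It had 0.42, 1.19 and 0.61 with radiation and 1.07, 0.68 and 0.80 in the combination, and passed in no comparison.

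H2ac10 (chromosome 13, 23718076 to 23718474) varied most between libraries of 1 group. It had 2, 38 and 8 counts in the controls, 17, 1 and 8 with Complex 1, 19, 104 and 6 with radiation and 5, 4 and 14 in the combination. Both of its highest values, 104 and 38 counts, were in libraries numbered 2. The difference of combination against radiation was -2.38 ± 1.03 (adjusted p = 0.45, edgeR) and -0.65 without radiation replicate 2, and that of radiation against control was 1.38 ± 0.92 (adjusted p = 0.35) and -0.35 without it. In the edgeR fit without a level filter both passed with smaller errors. There they were -2.39 ± 0.41 (adjusted p = 1.97e-06) and 1.36 ± 0.37 (adjusted p = 0.0053), with radiation replicate 2 included. Since 85.9% of its 31-base words occur elsewhere, reads from related genes cannot be told apart from its own.

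Over the 9 tested members, all 9 estimates for Complex 1 against control were below 0, with a median log2 fold change of -0.67, while 48% of all tested genes were below 0 with a median of 0.01. The level filter can tilt this count, since H2bc8 and H3c8 reached 1 FPKM in 0 Complex 1 libraries and entered through other groups. H2bc8 reached it in all 3 controls, so the filter can also tilt its overlaps with control below. Without control replicate 3, H1f10 (0.10) and H2bc21 (0.03) were above 0. In 2 of 9, H1f2 and H2bc8, all Complex 1 libraries lay below all controls (4.71% of all tested genes did so), and 1 of 9 passed. With radiation 7 of 9 were below 0 (51% of all tested genes) with a median of -0.40. Of the 9, 2 passed, H1f0 and H1f2, against a background of 5.85% in the lower direction. The libraries of H1f2 and H2bc8 did not overlap between radiation and control (12% of all tested genes were lower without overlap). In the combination against control 7 of 9 were below 0 (51% of all tested genes) with a median of -0.41. H1f0 passed as 1 of 9 against a background of 10% lower. There H1f0 and H2bc8 were lower without overlap (14.1% of all tested genes) and H4c9 was higher without overlap (23.9%). These 3 comparisons share the control libraries, control replicate 2 included. In a fit with no level filter, which took in 61 members, 30 were below and 26 above 0 with Complex 1, 38 below and 20 above with radiation, and 26 below and 33 above in the combination against control.

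Between treated groups the directions were mixed. Combination against Complex 1 gave 1 of 9 higher, H1f2 (4.73% of all tested genes passed higher), and 1 of 9 lower, H1f0 (5.25% lower). There 4 of 9 were below 0 (50.8% of all) with a median of 0.26. Without overlap, H1f2, H4c9 and H3c8 were higher (16.5% of all) and H1f0 and H2bc21 lower (14%). H3c8 entered the level filter through 1 control, 1 radiation and 1 combination library and 0 Complex 1 libraries. Its place above Complex 1 is thus partly set by the filter. Combination against radiation gave 0 of 9 in edgeR, with 1 of 9 at an unadjusted p under 0.05, H2ac10, and 0 of 9 in DESeq2. Of all tested genes 0.651% passed in edgeR in either direction and 10.3% had an unadjusted p under 0.05. The mean effect of Complex 1, which also uses the control libraries, gave 1 of 9 lower, H1f2 (0.512% of all). There all 9 estimates were below 0, against 48.5% of all tested genes, a count that the level filter can also tilt. The estimate of H4c9 was near 0 (-0.02 ± 0.30). The estimate of H1f10 (-0.04) kept its sign in 8 of 12 fits with 1 library left out.

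**Figure D4:**
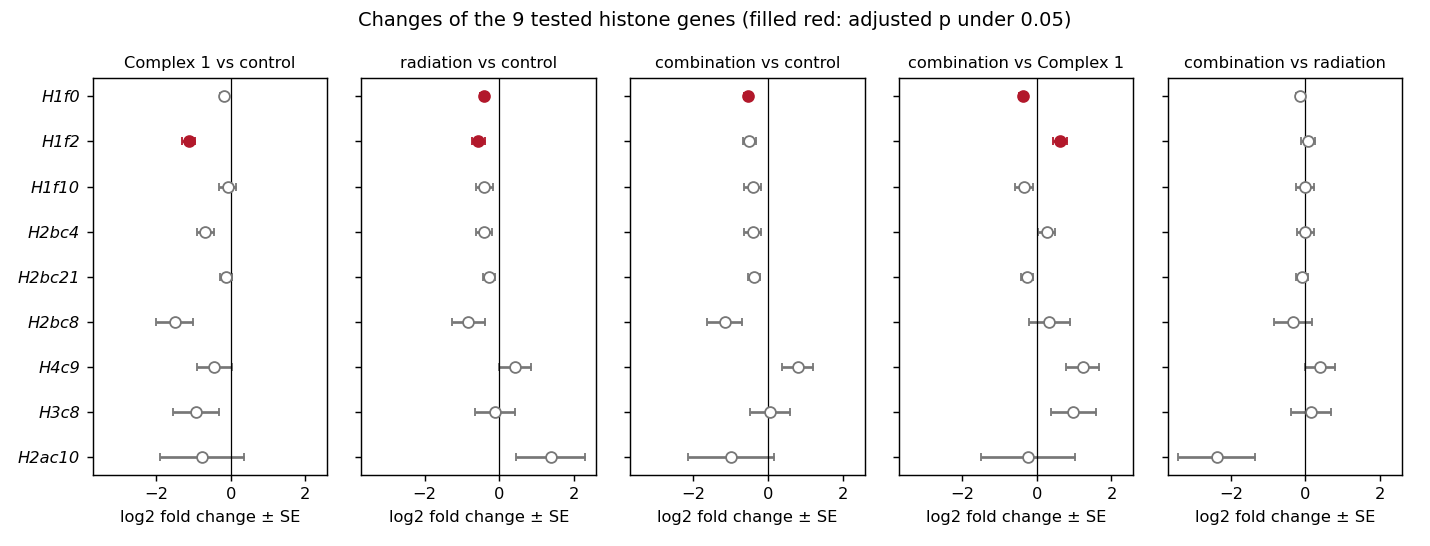
Log2 fold change ± SE (edgeR) of the 9 tested histone genes in the 5 comparisons between groups; filled red points have an adjusted p under 0.05. H1f2 is lower with Complex 1 (-1.12) and higher in the combination than with Complex 1 alone (0.63), and H1f0 is lower with radiation (-0.40) and in the combination (-0.54).

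The 61 untested members, all below the level filter, were described by their summed counts. They summed to 144 to 161 counts in the controls, 119 to 135 with Complex 1, 138 to 156 with radiation and 168 to 190 in the combination. Per mega count of the library these were 7.86 to 8.81, 6.56 to 8.65, 7.28 to 8.70 and 10.04 to 10.86. All 3 combination libraries lay above the 9 others, and the other groups overlapped. No test was made of this sum. The largest contributors were H2bc6 with 307 counts over the 12 libraries, H4c14 with 198, H1f3 with 158 and H1f4 with 138. Each of them exceeded 3 counts in all 12 libraries. Their exonic lengths are 4446, 1630, 7425 and 1930 bases, and FPKM divides by that length. The sum is thus not only one of genes near the limit of detection. For comparison, 134 genes of small non-polyadenylated RNAs, 67 of them with any count, were summed. They gave 28.4 to 29.3 counts per mega count in the controls, 30.4 to 33.7 with Complex 1, 26.1 to 33.4 with radiation and 26.7 to 35.3 in the combination. These groups overlapped apart from control and Complex 1. Whether this sum follows the capture of histone mRNA without a poly(A) tail was not tested, nor was the part of such RNA in the histone sum.

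**Figure D5:**
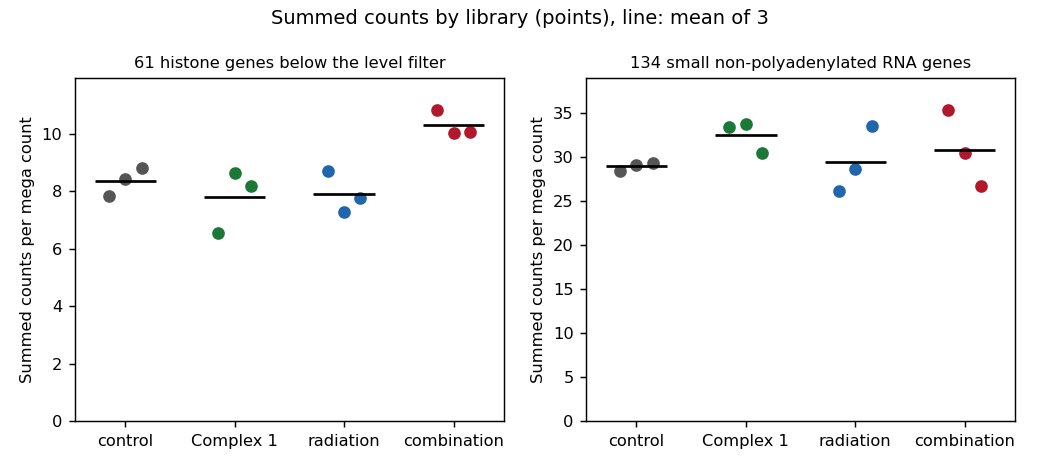
Counts per mega count of the library, summed over the 61 histone genes below the level filter (left) and over 134 genes of small non-polyadenylated RNAs (right), per library (points) with the group mean (line). The 3 combination libraries (10.04 to 10.86) lie above the 9 others on the left, and the combination spans 26.7 to 35.3 on the right.

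The histone genes depend on other genes for their transcription and processing, and several of these fell with radiation. Of 22 genes for the transcription, 3′ processing and decay of histone mRNA, 21 were tested, and 4 fell with radiation (5.85% of all tested genes did) and 5 in the combination against control (10% of all), with none higher. In the mean effect of radiation 10 of 21 fell (13.2% of all). Among them were Slbp, which binds the stem-loop (-0.33 ± 0.04, adjusted p = 0.00022, edgeR), Npat, the coactivator of histone gene transcription (-0.18 ± 0.06, adjusted p = 0.025), and Eri1, an exonuclease that acts on the stem-loop (-0.34). With Complex 1 against control 0 of 21 passed in edgeR (0.812% of all tested genes did) and 0 in DESeq2. There 1 of 21 had an unadjusted p under 0.05 (12.5% of all), and Slbp was -0.06 ± 0.06. Slbp ranged from 12.1 to 16.6 FPKM over the 12 libraries, so it was expressed in every one.

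The histone variants that are made without a link to replication differed widely in level. Of the 10 listed, H4f16 did not exceed 0.06 FPKM, Macroh2a2 had 0.18 to 0.76 FPKM and H2aj 2.49 to 6.39 FPKM. H2ax, which marks sites of DNA breaks when phosphorylated, had 38.2 to 75.1 FPKM, and Cenpa, the H3 variant of centromeres, 13.9 to 21.6 FPKM. Of 8 tested variants 4 fell with radiation (5.85% of all tested genes did), and 5 fell (10%) and 1 rose (11.9%) in the combination against control. In the mean effect of radiation 5 of 8 fell (13.2% of all), among them H2ax (-0.57 ± 0.08, adjusted p = 0.00027, edgeR), H2az1 (-0.51 ± 0.07, adjusted p = 0.00030) and Cenpa (-0.41 ± 0.05, adjusted p = 0.00018). With Complex 1 against control 0 of 8 passed in edgeR (0.812% of all tested genes did) and 0 in DESeq2. At an unadjusted p under 0.05 there were 0 of 8 (12.5% of all). With so few genes passing in that comparison, 0 of 8 is near the background. H1f2 had its largest difference between groups in that comparison.

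Genes of S phase and mitosis give the levels of proliferation beside these values. Of 30 S-phase genes 25 fell in the mean effect of radiation, where 13.2% of all tested genes fell, such as Pcna (-0.39). With Complex 1 against control 0 of 30 passed in edgeR (0.812% of all tested genes did) and 0 in DESeq2. There 3 of 30 had an unadjusted p under 0.05 (12.5% of all). Of 15 mitotic genes 15 fell in the mean effect of radiation, such as Mki67 (-0.52), and 0 passed with Complex 1, where 0.0951% of all tested genes fell (0 at an unadjusted p under 0.05, 0 in DESeq2). H1f0 fell together with these lists in the same comparison, where the median of the 30 S-phase genes was -0.33 and that of the 15 mitotic genes -0.38.

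Markers of other cells also moved with the groups. The 12 leukocyte markers summed to 57.4 to 74.3 FPKM in the controls, 156 to 261 with Complex 1, 81.7 to 123 with radiation and 323 to 485 in the combination. S100a9 (2.93 to 290.66 FPKM) and S100a8 (0.84 to 87.2 FPKM), both abundant in neutrophils, carried much of this sum. Of the 12, 10 were tested, and 3 rose with Complex 1 (0.717% of all tested genes rose), 3 with radiation (7.39%) and 6 in the combination against control (11.9%). The median log2 fold change of the 10 was 0.46 with Complex 1 and 0.64 with radiation, the reverse of the order of the sums. Krt18, the epithelial marker that could be tested, fell in the combination against control (-0.87 ± 0.27, adjusted p = 0.038, edgeR). The 4 fibroblast markers summed to 73.7 to 75.8, 89.7 to 109, 81.4 to 110 and 120 to 132 FPKM, and Dcn rose in the combination. The 6 erythroid markers summed to 5.18 to 32.4 FPKM with overlap between all groups. Against control, 0 of the 4 tested passed in edgeR or DESeq2. Of all tested genes 0.812%, 13.2% and 21.9% passed in edgeR with Complex 1, radiation and the combination. In the combination 1 of the 4 had an unadjusted p under 0.05 (34.5% of all). The part of these cell types in the changes of H1f0 and H1f2 was not tested.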

How the data were processed

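RNA-seq libraries of CT26 tumours, 3 in each of 4 groups, were compared. Per the submitters' processing notes, the tools were STAR 2.5.3a, HTSeq 2.0.1 and DESeq2, and the build was mm39. Which step each tool did, the strand setting, the handling of reads with several matches and any selection of poly(A) RNA are not stated there or in the labels.

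The deposited table holds a whole-number read count per gene and library for 55415 entries, with mm39 coordinates. It also holds FPKM computed by the authors, which scale those counts to exonic kilobases and to the library total, and a recomputation came within 0.005 FPKM. The deposited exonic gene length was used for that recomputation and compared with the transcript lengths. It also enters the level filter through the FPKM. Entries without a symbol numbered 1492.

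Testing was limited to the 13668 genes that reached 1 FPKM in 3 or more of the 12 libraries. Counts were scaled by TMM and compared by the quasi-likelihood method of edgeR 4.0.16 under R 4.3.3, in 1 model with a mean per group over all 12 libraries. P-values were adjusted by Benjamini-Hochberg (BH) over all tested genes, separately in each of 8 comparisons: 5 pairs of groups, the mean effects of radiation and of Complex 1, and their interaction. A gene passed at an adjusted p under 0.05. Alternatives were DESeq2 1.42.0, other size factors, other filters, a fit of the compared groups alone, a replicate block, and each library left out in turn. When tested on simulated data of the 13668 genes (radiation against control), the method found 61% of 100 changes of 1.5-fold and 88% of 100 changes of 2-fold. It made 12 false calls. H2bc8, H4c9, H3c8 and H2ac10 had only 79 to 226 counts each over the 12 libraries. How often the method finds a change at such low counts was not tested.

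Transcript ends were read from GENCODE M21 (GRCm38) and promoters from RefSeq (GRCm38.p6). The histone genes and all gene lists were chosen with earlier results of these data known. Genes described singly are every member that passed in any comparison, every tested linker histone and the 5 members with the highest mean FPKM. These are H1f0, H1f2, H1f10, H2bc4 and H2bc21. H2bc8, H4c9, H3c8 and H2ac10, and the untested members named, were added after their values were seen.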

Additional observations from a re-analysis of the deposited data

How the results depend on the processing

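Of 312 single-gene fold changes recomputed under settings that kept all 12 libraries, 292 kept their direction and their side of the threshold, 8 no longer passed, 8 newly passed and 4 changed sign. The sign changes were in combination against radiation, where H1f10 was 0.00523 with library totals as the scaling and 0.0122 with the replicate block, and H2bc4 was 0.0158 and 0.0190. None of these passed in any setting, and the cause was not tested.

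Of 53 recomputed counts of passing histone genes, 39 stayed within 1.5 times. Radiation against control gave 1 with median-ratio size factors, library totals or a filter on mean FPKM, and 0 when only the groups compared were fitted. Complex 1 against control gave 0 with only the groups compared and 3 without a filter. Combination against control gave 2 with DESeq2 and without a filter, and combination against Complex 1 gave 1 with library totals. The mean effect of Complex 1 gave 0 with library totals and 2 without a filter. The interaction gave 1 with DESeq2 and 1 without a filter, and combination against radiation gave 1 without a filter. The unfiltered fit tested 31727 genes, of which 61 were histone genes. H3c8 gave no value under the filter on mean FPKM. For these settings, and with libraries left out, the share of all genes passing was not computed. The counts of passing histone genes there have no background beside them.

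Leaving out each library in turn gave 0 to 1 passing histone genes for Complex 1 against control, 0 to 1 for radiation against control, 1 to 2 for combination against control, 0 to 2 for combination against Complex 1, 1 to 2 for the mean effect of radiation and 0 to 1 for that of Complex 1. Estimates near 0 crossed it. The ranges of log2 fold change were -0.0370 to 0.167 for H1f2 and -0.159 to 0.0439 for H2bc4 in the effect of radiation, and -0.0231 to 0.150 for H1f2, -0.24 to 0.19 for H1f10, -0.159 to 0.0172 for H2bc21 and -0.18 to 0.14 for H2bc4 in combination against radiation. For Complex 1 against control they were -0.19 to 0.10 for H1f10 and -0.271 to 0.0293 for H2bc21, and in the effect of Complex 1 -0.160 to 0.0576 for H1f10. In the interaction they were -0.0411 to 0.140 for H1f0, -0.16 to 0.26 for H1f10 and -0.13 to 0.18 for H2bc21. H2ac10 ranged from -0.35 to 2.99 in radiation against control.

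Libraries with the same replicate number did not deviate together: 4 of 18 same-number pairs correlated above 0.1 (range -0.20 to 0.16), and 4 of 12 libraries correlated best with their own number. With the replicate number as a block, 1, 2, 1, 0 and 2 histone genes passed in Complex 1, radiation and combination against control, combination against radiation and combination against Complex 1, the same counts as without it.

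Of the 70 genes, 61 were below the level filter. The labels leave out doses, times and whether libraries of a group came from separate animals.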
